A study of Homo sapiens with 2 samples.

Results

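The genes described here are 9 that encode giant cytoskeletal, scaffold and ubiquitin-pathway proteins from very long messenger RNAs. They are FLNA, MACF1, UTRN, AHNAK, DYNC1H1, SYNE2, FAT1, HUWE1 and BIRC6, and they were taken by symbol from GENCODE release 44 as genes with mRNAs of about 8 kb or more that epithelial cells express. All 9 were found among the 58735 Ensembl genes of both count tables. The cells were MCF10a-Snail-ER, a line derived from the non-tumorigenic human mammary epithelial line MCF10a that stably carries the repressor Snail fused to the estrogen receptor. Before RNA was taken, the cells were held for 1 day in 100 nM tamoxifen, which activates the fusion protein and starts an epithelial-to-mesenchymal transition. The medium held horse serum, EGF, hydrocortisone, cholera toxin and insulin. Polyadenylated RNA described as matched was read by Oxford Nanopore direct RNA sequencing (1 library) and by Illumina TruSeq stranded mRNA sequencing (1 library), and no untreated library was analysed here. Whether the line is a single clone is not given in the sources used here. The comparison is therefore between platforms, it has no replicate check, and every interval and test covers counting error in these 2 libraries only.

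In direct RNA sequencing an adapter is joined to the poly(A) tail and the native strand is read from its 3′ end. A strand thus gives at most a single read whatever its length. Whether a read was also counted for an overlapping gene depends on counting options that are not given. In the Illumina protocol RNA is fragmented first, so a longer mRNA of the same abundance gives more fragments and more counts. Counts per 1000000 (CPM) of the Illumina library therefore grow with length by construction, and transcripts per 1000000 (TPM) divide that length out. The proteins themselves span long distances in the cell: filamins and plakins cross-link actin to membranes and microtubules, nesprins tie the nucleus to the cytoskeleton, and the dynein heavy chain is the motor that walks along microtubules.

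Counts came to 403235 by Nanopore and 191741714 by Illumina, so Illumina was 476-fold deeper. A count of 1 equalled 2.48 CPM in the Nanopore library and 0.00522 CPM in the other. The 10 basal mammary epithelial markers examined, KRT5, KRT14 and TP63 among them, had counts in both libraries and summed to 3941 CPM and 3870 CPM, Nanopore first. Of 4 leukocyte, 3 endothelial, 4 fibroblast and 2 adipocyte markers, CD14 was the only gene with Nanopore counts (12.4 CPM, against 10.95 CPM by Illumina), and the others reached at most 5.07 Illumina CPM (PECAM1). The mean of the 2 libraries reached 5 CPM, the minimum for testing, in 12414 genes, all 9 members among them.

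The 9 genes together held 240 Nanopore counts and 420463 Illumina counts. That was 0.0595% of the Nanopore library (95% exact Clopper-Pearson interval 0.0522 to 0.0675%) and 0.219% of the Illumina library (0.219 to 0.220%), a share 3.68-fold larger by Illumina (3.25 to 4.20). FLNA and AHNAK supplied 59.2% of these Nanopore counts and 62.2% of the Illumina counts. In CPM each of the 9 was lower by Nanopore, as were 63.2% of all tested genes, and with the Illumina counts divided by the length of a representative transcript (Ensembl canonical) each was higher by Nanopore. The sign of the platform difference thus changed with this unit in all 9.

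**Figure D1:**
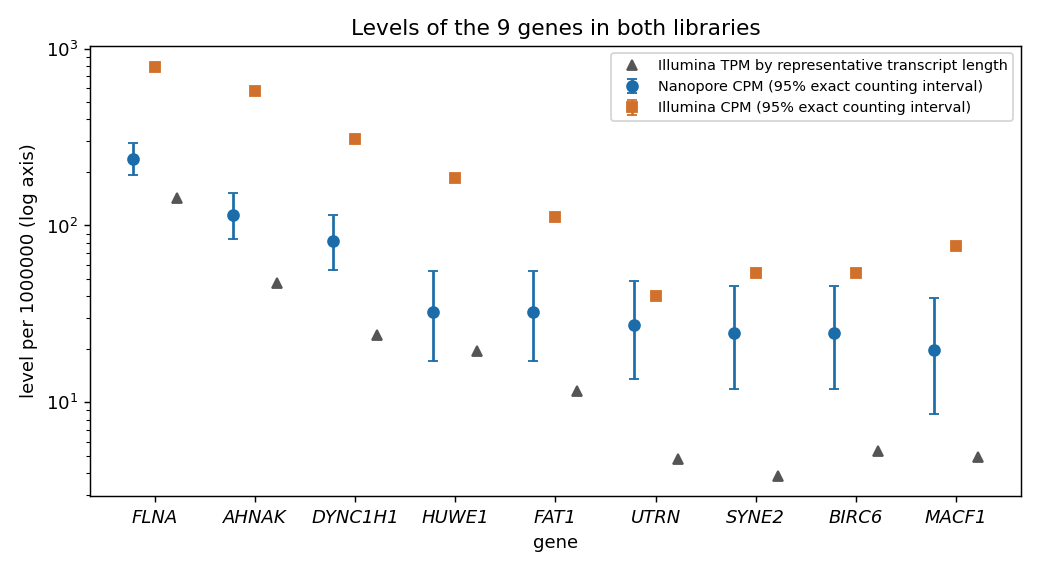
Levels of the 9 genes, ordered by Nanopore CPM, with a log axis in units per 1000000. Circles are Nanopore CPM and squares Illumina CPM, each with a 95% exact counting interval (within the square for Illumina), and triangles are Illumina TPM by representative transcript length. Circles lie below squares and above triangles for every gene, and FLNA is highest on each scale.

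The first group of genes cross-links actin. FLNA (ENSG00000196924, chromosome X, 154348524 to 154374634, minus strand, hg38) encodes filamin A, which joins actin filaments into networks and anchors them to integrins. It is the shortest of the set, with a representative transcript of 8507 bases in 48 exons, and the richest in G and C (62.3%). It had 96 Nanopore counts, 238 CPM (193 to 291), and 151227 Illumina counts, 789 CPM (785 to 793). Its level was the highest of the 9 on every scale. The Illumina CPM exceeded the Nanopore CPM 3.31-fold (2.71 to 4.09), with a log2(CPM + 1) ratio of −1.72 at adjusted p = 1.33e-46 (two-sided exact binomial test, Benjamini-Hochberg over all 12414 genes). In TPM the Illumina level was 143.7, and the Nanopore CPM was 1.66-fold above it (1.34 to 2.02).

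MACF1 (ENSG00000127603, chromosome 1, 39081316 to 39487177, plus strand) encodes a spectraplakin that connects actin with microtubules. Its representative transcript, of 24340 bases in 101 exons, is the longest of the set, and the annotation lists 58 transcripts with a union of 70573 exonic bases. MACF1 had 8 Nanopore counts, 19.8 CPM (8.57 to 39.1), and 14702 Illumina counts, 76.7 CPM (75.4 to 77.9). The intervals did not overlap. The Illumina CPM was 3.86-fold higher (1.96 to 8.95; log2 ratio −1.90), at adjusted p = 1.03e-05 (exact binomial test, Benjamini-Hochberg), and the difference fell short of the 4-fold threshold used for calls. Against the TPM of 4.88, the Nanopore CPM was 4.06-fold higher (1.75 to 8.01).

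UTRN (ENSG00000152818, chromosome 6, 144285335 to 144853034, plus strand) encodes utrophin, the widely expressed relative of dystrophin that links actin to the dystroglycan complex of the membrane. Its gene body, 568 kb, is the longest of the 9, and its representative transcript has 12918 bases in 75 exons. UTRN had 11 Nanopore counts, 27.3 CPM (13.6 to 48.8), and 7621 Illumina counts, 39.7 CPM (38.9 to 40.6). The Illumina value lay inside the Nanopore interval. The ratio of Illumina to Nanopore CPM was 1.46 (0.814 to 2.92; log2 ratio −0.53), at adjusted p = 0.365 (exact binomial test, Benjamini-Hochberg). UTRN was the single gene of the 9 without a difference detectable in CPM at this depth, but against a TPM of 4.77 its Nanopore CPM was 5.72-fold higher (2.85 to 10.2).

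AHNAK (ENSG00000124942, chromosome 11, 62433542 to 62556235, minus strand) encodes a giant scaffold beneath the plasma membrane that binds the annexin A2 and S100A10 complex. It is built unlike the other members: 18173 of the 18761 bases of its representative transcript lie in a single exon, the last of 5, and its coding sequence repeats itself. Of its 30-base coding words, 20.8% occur more than once, against 0.0% in each of the other 8 coding sequences. The most frequent word occurs 9 times, all in exon 5, between 62520392 and 62531806. Copies 1, 3, 6 and 9 are shown to let the repeat be seen, from the GENCODE release 44 transcript, 5′ to 3′ on the minus strand of hg38, with the shared word in capitals and 30 bases on either side.
Copy 1, chr11:62531717-62531806: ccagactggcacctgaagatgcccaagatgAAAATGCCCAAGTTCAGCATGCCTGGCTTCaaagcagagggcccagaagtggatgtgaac
Copy 3, chr11:62527619-62527708: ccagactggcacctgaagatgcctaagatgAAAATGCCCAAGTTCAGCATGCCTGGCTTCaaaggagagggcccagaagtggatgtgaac
Copy 6, chr11:62523542-62523631: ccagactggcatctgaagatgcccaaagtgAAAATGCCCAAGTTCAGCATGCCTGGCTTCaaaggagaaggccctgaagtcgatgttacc
Copy 9, chr11:62520392-62520481: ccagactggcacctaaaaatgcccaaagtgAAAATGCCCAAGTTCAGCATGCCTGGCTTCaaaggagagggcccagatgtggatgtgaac
Across the 9 copies, 75 of the 90 positions of this window were identical. These include the 30 of the shared word, which are identical by selection. All 8 distances between successive copies were multiples of 3 bases, which keeps the reading frame. No 50-base word of the AHNAK transcript occurs in another gene of the annotation.

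AHNAK had 46 Nanopore counts, 114 CPM (83.5 to 152), and 110376 Illumina counts, 576 CPM (572 to 579). It was second to FLNA on every scale. The Illumina CPM was 5.05-fold higher (3.78 to 6.89; log2 ratio −2.33), at adjusted p = 1.71e-48 (exact binomial test, Benjamini-Hochberg), so AHNAK was called as higher by Illumina. Against the TPM of 47.6 by representative transcript, the Nanopore CPM was 2.40-fold higher (1.76 to 3.20). With the mean length of all annotated transcripts, the Nanopore CPM was instead 0.487 times the TPM (0.356 to 0.649).

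DYNC1H1 (ENSG00000197102, chromosome 14, 101964573 to 102056443, plus strand) encodes the heavy chain of cytoplasmic dynein 1, which carries cargo towards the minus ends of microtubules. Its representative transcript has 19940 bases in 78 exons, of which 13938 are coding and 5883 are 3′ untranslated. Of its 50-base words, 4.32% occur in other genes, the highest share of the 9 (at most 0.181% elsewhere). DYNC1H1 had 33 Nanopore counts, 81.8 CPM (56.3 to 115), and 59032 Illumina counts, 308 CPM (305 to 310). The Illumina CPM was 3.76-fold higher (2.68 to 5.47; log2 ratio −1.90), at adjusted p = 7.41e-21 (exact binomial test, Benjamini-Hochberg). Against the TPM of 23.9 the Nanopore CPM was 3.42-fold higher (2.35 to 4.80).

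SYNE2 (ENSG00000054654, chromosome 14, 63761899 to 64226433, plus strand) encodes nesprin-2, a spectrin-repeat protein of the outer nuclear membrane. Its representative transcript, of 21822 bases in 116 exons, has the most exons of the set. SYNE2 had 10 Nanopore counts, 24.8 CPM (11.9 to 45.6), and 10384 Illumina counts, 54.2 CPM (53.1 to 55.2). The Illumina CPM was 2.18-fold higher (1.19 to 4.56; log2 ratio −1.10), at adjusted p = 0.0191 (exact binomial test, Benjamini-Hochberg). By the same exact test the adjusted p for SYNE2 was 0.0962 among protein-coding genes alone. With Illumina thinned to the Nanopore total, the median adjusted p of that test over 20 draws was 0.165, and both values were past 0.05. Its TPM of 3.85 was the lowest of the 9, and the Nanopore CPM was 6.45-fold above it (3.09 to 11.9), the largest such fold of the 9. Which isoforms of MACF1, SYNE2 and the other genes were present is not resolved by gene counts, so each TPM rests on the length assumed.

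FAT1 (ENSG00000083857, chromosome 4, 186587794 to 186726722, minus strand) encodes a giant atypical cadherin of cell contacts and protrusions. It had 13 Nanopore counts, 32.2 CPM (17.2 to 55.1), and 21280 Illumina counts, 111 CPM (109.5 to 112.5). The Illumina CPM was 3.44-fold higher (2.01 to 6.47; log2 ratio −1.75), at adjusted p = 2.93e-07 (exact binomial test, Benjamini-Hochberg). Against its TPM of 11.6, by a transcript of 14776 bases, the Nanopore CPM was 2.77-fold higher (1.47 to 4.74). With the mean length of all annotated transcripts, it was instead 0.519 times the TPM (0.276 to 0.888).

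HUWE1 and BIRC6 belong to the ubiquitin system. HUWE1 (ENSG00000086758, chromosome X, 53532096 to 53686752, minus strand) is a HECT-type ubiquitin ligase, and BIRC6 (ENSG00000115760, chromosome 2, 32357023 to 32619571, plus strand) is an inhibitor of apoptosis that carries a ubiquitin-conjugating domain. HUWE1 had 13 Nanopore counts, 32.2 CPM (17.2 to 55.1), and 35531 Illumina counts, 185 CPM (183 to 187). Its Illumina CPM was 5.75-fold higher (3.36 to 10.8; log2 ratio −2.49), at adjusted p = 3.94e-17 (exact binomial test, Benjamini-Hochberg). HUWE1 thus had the lowest Nanopore to Illumina ratio of the 9 and was, with AHNAK, called as higher by Illumina. Against its TPM of 19.5, by a transcript of 14731 bases, the Nanopore CPM was 1.65-fold higher, and this interval, 0.880 to 2.83, held 1. BIRC6 had 10 Nanopore counts, 24.8 CPM (11.9 to 45.6), and 10310 Illumina counts, 53.8 CPM (52.7 to 54.8). Its Illumina CPM was 2.17-fold higher (1.18 to 4.52; log2 ratio −1.09), at adjusted p = 0.0207 (exact binomial test, Benjamini-Hochberg), and its Nanopore CPM was 4.67-fold above a TPM of 5.31 (2.24 to 8.59). By the same exact test the adjusted p for BIRC6 was 0.053 under median-ratio scaling and 0.102 among protein-coding genes alone. With Illumina thinned, the median adjusted p of that test over 20 draws was 0.129. The difference of BIRC6 in CPM thus did not pass in these settings. BIRC6 was the only member with a run of at least 8 A in its coding sequence, where such a run is present in 9.52% of the 1471 annotated protein-coding genes with a representative transcript of 8 kb or more.

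In the Nanopore library the order was FLNA, AHNAK, DYNC1H1, then FAT1 and HUWE1 at the same count, UTRN, BIRC6 and SYNE2 at the same count, and MACF1. FLNA exceeded AHNAK 2.09-fold in counts (1.45 to 3.03) and DYNC1H1 exceeded FAT1 2.54-fold (1.30 to 5.26). The other 6 neighbours in this order did not differ beyond counting error, with intervals that held 1. In Illumina TPM by representative transcript the leading 5 were FLNA, AHNAK, DYNC1H1, HUWE1 and FAT1, followed by BIRC6, MACF1, UTRN and SYNE2. Across the 9 genes Spearman's rho between Nanopore CPM and Illumina TPM was 0.891, and between Nanopore and Illumina CPM 0.840, values across genes that share the 2 libraries. Nanopore CPM spanned a 12.0-fold range over the set, Illumina CPM a 19.8-fold range and Illumina TPM a 37.4-fold range.

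As a set, 2 of the 9 genes (AHNAK and HUWE1) were called as higher by Illumina at an adjusted p-value under 0.05 and 4-fold or more, against 7.31% of all 12414 tested genes and 14% of the 902 tested protein-coding genes with a representative transcript of 8 kb or more. In the other direction 0 of 9 were called, against 12.9% of all tested genes and 2.11% of the long ones, and since all 9 ratios were below 0 (85.7% of long genes) no unadjusted p-value could favour Nanopore. Without a fold threshold 8 of 9 had an adjusted p-value under 0.05, against 47.4% and 47.6%. That count was 7 under median-ratio scaling and 6 among protein-coding genes alone. It was also 6 by the median adjusted p-value over 20 draws with Illumina thinned to the Nanopore depth. SYNE2 and BIRC6 were those lost. At 2-fold, 8 of 9 were higher by Illumina, all but UTRN, against 21.7% of all tested genes and 39.1% of the long ones. The median log2 ratio was −1.75 (range −2.49 to −0.53), beside −0.42 over all tested genes and −1.04 over the 902 long genes (quartiles −1.67 and −0.45). Members were chosen as genes expressed in epithelial cells, and their Illumina counts, 7621 or more, bear on how many pass the test. UTRN, SYNE2 and BIRC6 had ratios above that of 71.4%, 47.8% and 48.1% of the long genes, while HUWE1 and AHNAK had ratios above that of 7.43% and 9.76% of them. For DYNC1H1, MACF1, FAT1 and FLNA these shares were 17.5%, 17.6%, 22.2% and 23.4%.

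The CPM ratios of the 9 genes showed no clear order by length, but 9 genes, with as few as 8 Nanopore counts, cannot decide this. Across all 10498 tested protein-coding genes the log2 ratio of CPM fell with representative transcript length (Spearman's rho −0.374, across genes). Its median was 0.48 below 1000 bases, −0.18 from 1000 to 2000, −0.59 from 2000 to 4000, −0.91 from 4000 to 8000, −1.08 from 8000 to 12000 and −0.96 at 12000 bases or more. Within the 902 long genes rho was 0.00864 and within the 9 members it was −0.217. For the ratio to Illumina TPM, which has the length in it, rho over the 902 long genes was 0.249. FLNA, at 8507 bases the shortest, had a ratio of −1.72, and SYNE2, of 21822 bases, had −1.10. Against the share of G and C in the transcript, which ran from 42.8% (SYNE2) to 62.3% (FLNA), rho over the 9 was −0.617, and over the 902 long genes it was −0.239.

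**Figure D2:**
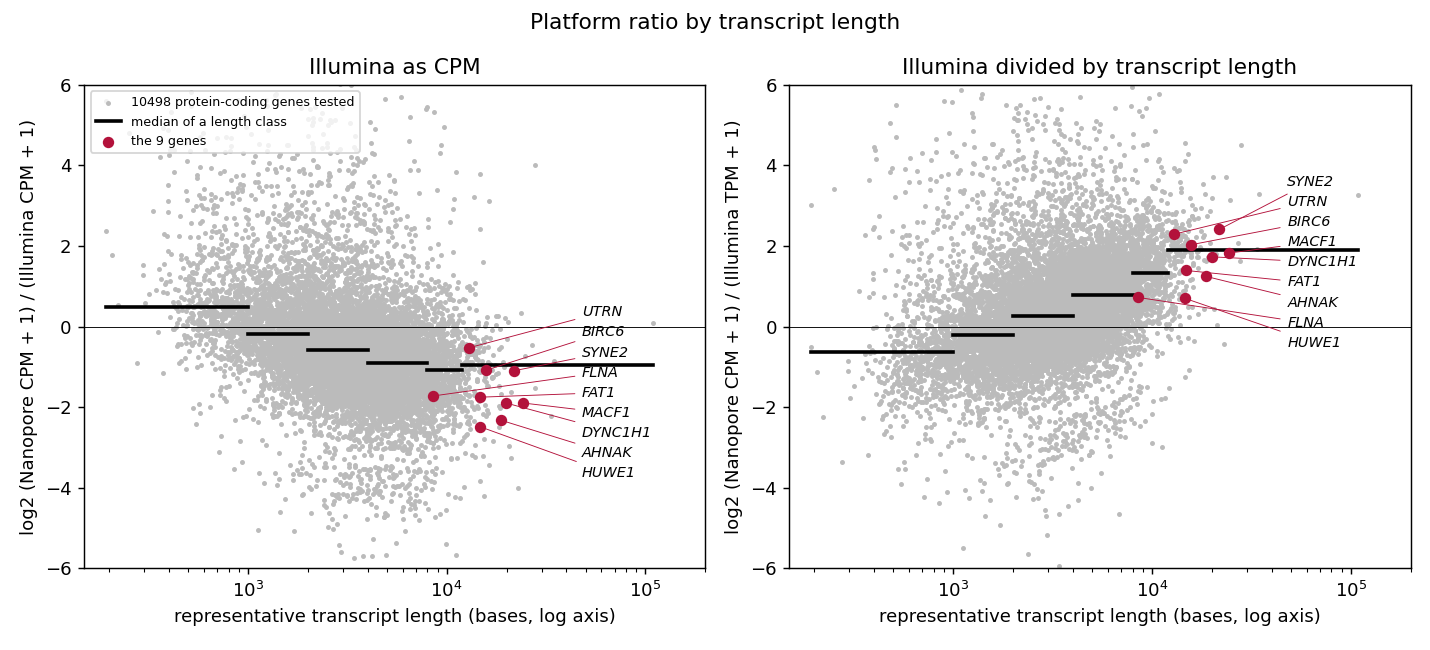
Log2 ratio of Nanopore to Illumina level against representative transcript length (log axis) for 10498 tested protein-coding genes (grey), with Illumina as CPM on the left and as TPM on the right. Black bars are medians of 6 length classes and red points the 9 genes; 46 grey points in each panel lie beyond the axis. The 9 genes are all below 0 on the left and all above 0 on the right, where the class medians climb from −0.63 to 1.91.

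Division by length turned the difference over. With Illumina TPM by representative transcript, the log2 ratios of the 9 were all above 0, from 0.70 (HUWE1) to 2.41 (SYNE2), with a median of 1.73. The same held for 64.8% of all tested genes, whose median was 0.48, and for 92.9% of the long genes, whose median was 1.45. By this unit 3 of the 9 (SYNE2, UTRN and BIRC6) were called as higher by Nanopore, against 15.6% of all 12350 tested genes with a length and 26.6% of the long ones, and 0 of 9 as higher by Illumina, against 2.53% and 0%. All but HUWE1 had an adjusted p-value under 0.05 by this unit, against 41.3% and 51.7%. In the class of 12000 bases or more, which holds 8 of the 9 members among its 210 genes, the median was 1.91 (quartiles 1.25 and 2.41). Of those 8, 5 lay between the quartiles (MACF1, DYNC1H1, FAT1, UTRN and BIRC6), AHNAK and HUWE1 below and SYNE2 above. AHNAK (1.245) and SYNE2 (2.412) were so near the quartiles, 1.253 and 2.407, that counting error could place them on either side. With union exonic length all 9 ratios were again above 0, against 62.8% of all tested and 85.8% of long genes; MACF1 and SYNE2 were called as higher by Nanopore (15.1% and 18.4%) and none by Illumina (3.09% and 0%). With the mean length of all annotated transcripts 5 of 9 were above 0 (51.9% and 64.9%), and 0 of 9 were called as higher by Nanopore (13.5% and 7.32%) or by Illumina (3.4% and 1.22%).

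**Figure D3:**
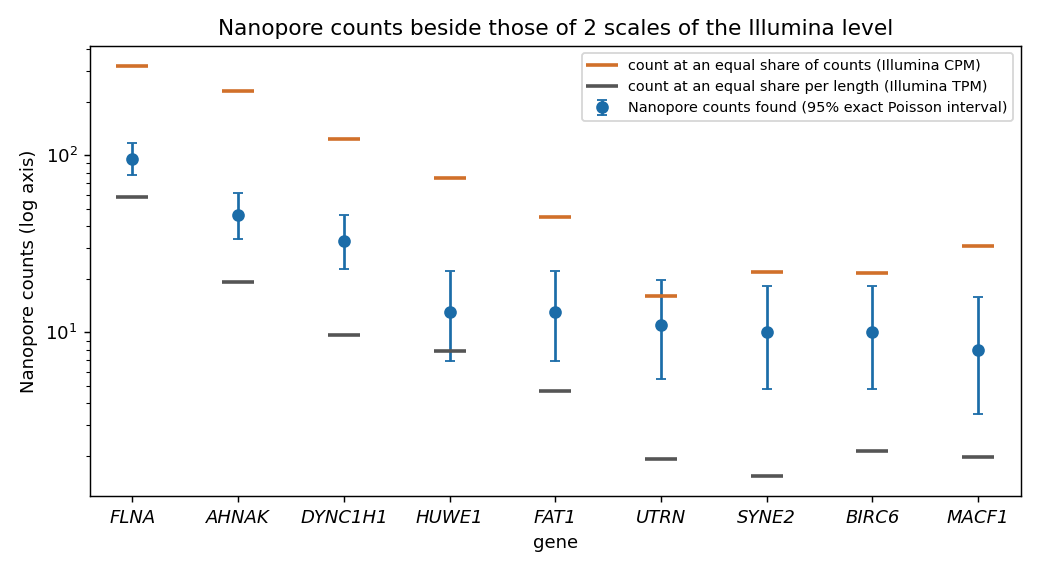
Nanopore counts of the 9 genes (circles, 95% exact Poisson intervals, log axis) beside the counts that an equal share of the library would give from the Illumina CPM (orange bars) or the Illumina TPM by representative transcript length (grey bars). The orange bar lies above the interval for all genes but UTRN, and the grey bar lies below it for all but HUWE1.

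Put as counts, an equal share of each library would have given the 9 genes 884 Nanopore counts by Illumina CPM and 107 by Illumina TPM, where 240 were found. By CPM, FLNA would have had 318 counts, AHNAK 232, DYNC1H1 124, HUWE1 74.7, FAT1 44.8, MACF1 30.9, SYNE2 21.8, BIRC6 21.7 and UTRN 16.03. The CPM value lay above the exact Poisson interval of the count found in 8 genes and within it in UTRN. By TPM with the representative transcript, FLNA would have had 57.9 counts, AHNAK 19.2, DYNC1H1 9.65, HUWE1 7.86 and FAT1 4.69, and the other 4 between 1.55 and 2.14. The TPM value lay below the interval in 8 genes and within it in HUWE1. With the union of all exons as the length, it lay below the interval in 6 and within it in 3. With the mean length of all annotated transcripts, 2145 (FAT1) to 7775 bases (DYNC1H1), the sum was 298. The value then lay within the interval in 6 genes, above it in 2 (AHNAK and FAT1) and below it in 1 (DYNC1H1).

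For DYNC1H1 and SYNE2, a gene overlapping the member had a Nanopore count equal to the member's. ENSG00000258959, annotated as a transcribed unitary pseudogene on the opposite strand of the 3′ part of DYNC1H1 (chromosome 14, 102036315 to 102066228), shares 1033 of its 1240 exonic bases with DYNC1H1 exons. It had 33 Nanopore counts, as DYNC1H1 did, and 1220 Illumina counts, and it was called as higher by Nanopore (log2 ratio 3.49, adjusted p = 1.45e-23, exact binomial test, Benjamini-Hochberg). ESR2, the gene of estrogen receptor beta, overlaps the 3′ part of SYNE2 on the opposite strand (64084232 to 64338112). It had 10 Nanopore counts, as SYNE2 did, against 96 Illumina counts (24.8 and 0.501 CPM). ESR2 reached the mean of 5 CPM only through the Nanopore library, where it is high, so its test is not used here. In GENCODE release 44 no exonic base of ESR2 is shared with SYNE2, and the annotation used for counting is not given in the sources used here. Over the whole tables, 292 of 1464 overlapping opposite-strand pairs with at least 10 Nanopore counts in both genes had equal Nanopore counts (19.9%), and 7 of 6270 such pairs had equal Illumina counts (0.112%). Equal counts are likelier at low counts, so the Illumina counts were also thinned once to the Nanopore total, after seeing the data, which gave 10 of 723 pairs (1.38%). The reads of a gene and of its antisense partner cannot be told apart where counting ignores strand, and the counting options are not given. Neither DYNC1H1 nor SYNE2 was called, so leaving them out could not change the 2 calls by Illumina, now of 7. Their log2 ratios, −1.90 and −1.10, lie on either side of the members' median, so it stayed at −1.75. Leaving these genes out therefore does not check the calls or the median. The other genes overlapping the members had few counts: a lncRNA within AHNAK (ENSG00000257058) had 3 Nanopore counts, and none of those overlapping MACF1, HUWE1, FLNA, UTRN and BIRC6 had any. No annotated gene overlaps FAT1.

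Relatives of the cross-linkers were also lower by Nanopore in CPM. Of 14 plakin, filamin, dystrophin, spectrin and actinin genes, 12 were tested, 8 had an adjusted p-value under 0.05 in the exact test, all higher by Illumina, and 3 of them were called at 4-fold. Over all tested genes 47.4% passed and 7.31% were called as higher by Illumina, and over long genes 47.6% and 14%. Their median log2 ratio was −1.06 in CPM and 1.08 in TPM. The 3 called were ACTN4, a non-muscle actinin (19 and 60439 counts by Nanopore and Illumina, log2 ratio −2.72), SPTBN1, a beta spectrin (16 and 32563, −2.07), and SPTAN1, the alpha spectrin of non-erythroid cells (19 and 36866, −2.01). PLEC, plectin, had 73 and 73332 counts (−1.07), and ACTN1 had 71 and 64005 (−0.92).

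Most dynein and dynactin subunits are encoded by mRNAs far shorter than that of DYNC1H1 (median 2485 bases). Of 22 genes, 21 were tested, 14 had an adjusted p-value under 0.05 in the exact test, all higher by Illumina, and 3 were called, against 47.4% and 7.31% of all tested genes. Their median log2 ratio was −1.09 in CPM and −0.19 in TPM. For tested protein-coding genes of 2000 to 4000 bases the medians were −0.59 and 0.25, and for the long genes −1.04 and 1.45. Whether length bears on the ratios of this list was not tested. The called genes were NDE1, a dynein regulator (2 and 9153 counts, −3.03), the light chain gene DYNLL2 (11 and 27087, −2.33) and the light intermediate chain gene DYNC1LI2 (9 and 21555, −2.28). DYNLL1, the other LC8 light chain gene, had 145 and 64874 counts (0.09), and ACTR1A, of the dynactin filament, had 28 and 36506 (−1.44).

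Among genes of the nuclear envelope bridge (SUN proteins, other nesprins, lamins and emerin), 9 of 11 were tested, 4 had an adjusted p-value under 0.05, all higher by Illumina, and none was called in either direction, against 47.4% of all tested genes that passed, 7.31% called by Illumina and 12.9% by Nanopore. The share that passed was thus near that of all genes. Their median was −0.60. LMNA, lamin A/C, had 167 and 107336 counts (−0.43), and LMNB2 had 27 and 42678 (−1.72). Of 10 dystroglycan-complex genes, partners of utrophin, 6 were tested and DAG1, dystroglycan itself, was the only gene with an adjusted p-value under 0.05 (11 and 24663 counts, −2.20, called as higher by Illumina). SGCB, beta-sarcoglycan, had 14 and 11096 counts (−0.72), and the median of the list was −0.65.

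Of 5 genes tied to AHNAK, 4 were tested, 3 had an adjusted p-value under 0.05 and 1 was called. Over all tested genes 47.4% passed, 7.31% were called as higher by Illumina and 12.9% by Nanopore. ANXA2, annexin A2, had 648 and 582564 counts (−0.92), and S100A10, its light chain, had 379 and 135864 (0.41); both differed in the exact test, in opposite directions. MYOF, myoferlin, had 15 and 30001 counts (−2.04) and was the only gene of the list called. Of 9 genes of the Fat cadherin group, 6 were tested and 2 had an adjusted p-value under 0.05, against 47.4% of all tested genes, and none was called. Both were higher by Illumina: ENAH (44 and 30985 counts, −0.56) and VASP (18 and 22759, −1.39), actin regulators that bind the FAT1 tail.

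All 10 other giant ubiquitin ligases and deubiquitinases were tested, 9 had an adjusted p-value under 0.05 in the exact test, all higher by Illumina, and 3 were called, against 47.4% and 7.31% of all tested genes and 47.6% and 14% of long ones. Their median log2 ratio was −1.44 in CPM and 1.47 in TPM. The called genes were HERC2 (1 and 12056 counts, −4.20), HERC1 (1 and 6034, −3.22) and UBR4 (11 and 22697, −2.08), while TRIP12 had 34 and 39193 (−1.27). Of the 549 long genes whose mean reached 20 CPM, HERC2 had one of the 3 lowest ratios, after FOXK1 (0 and 9625 counts, −5.68) and RAD54L2 (0 and 7824, −5.39). The 3 highest were DGKI (316 and 162 counts, 8.73), ANK2 (498 and 854, 7.82) and ST8SIA1 (23 and 164, 4.97). All 9 members lay between these extremes, but all except UTRN had ratios below the median of the tested long genes, −1.04. On the TPM scale the log2 ratios of HERC2 (−1.08) and HERC1 (−0.27) were below 0, where those of HUWE1 and BIRC6 were above 0. HERC2 and HERC1 had 1 Nanopore count each. The interval of that count, 0.0628 to 13.8 CPM, held both TPM values (6.34 and 3.21), so the sign of these 2 ratios is within counting error. For HUWE1 the interval of the fold also held 1. In the list of inhibitors of apoptosis and caspases, 9 of 9 were tested, 3 were higher by Illumina and 2 by Nanopore at an adjusted p-value under 0.05, and the median was −0.53. BIRC3, another inhibitor of apoptosis, was called as higher by Nanopore (15 and 1146 counts, 2.45), and BIRC5, survivin, had 45 and 31068 (−0.53). BIRC3 was the only gene of this list called, where 12.9% of all tested genes were called by Nanopore and 7.31% by Illumina.

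**Figure D4:**
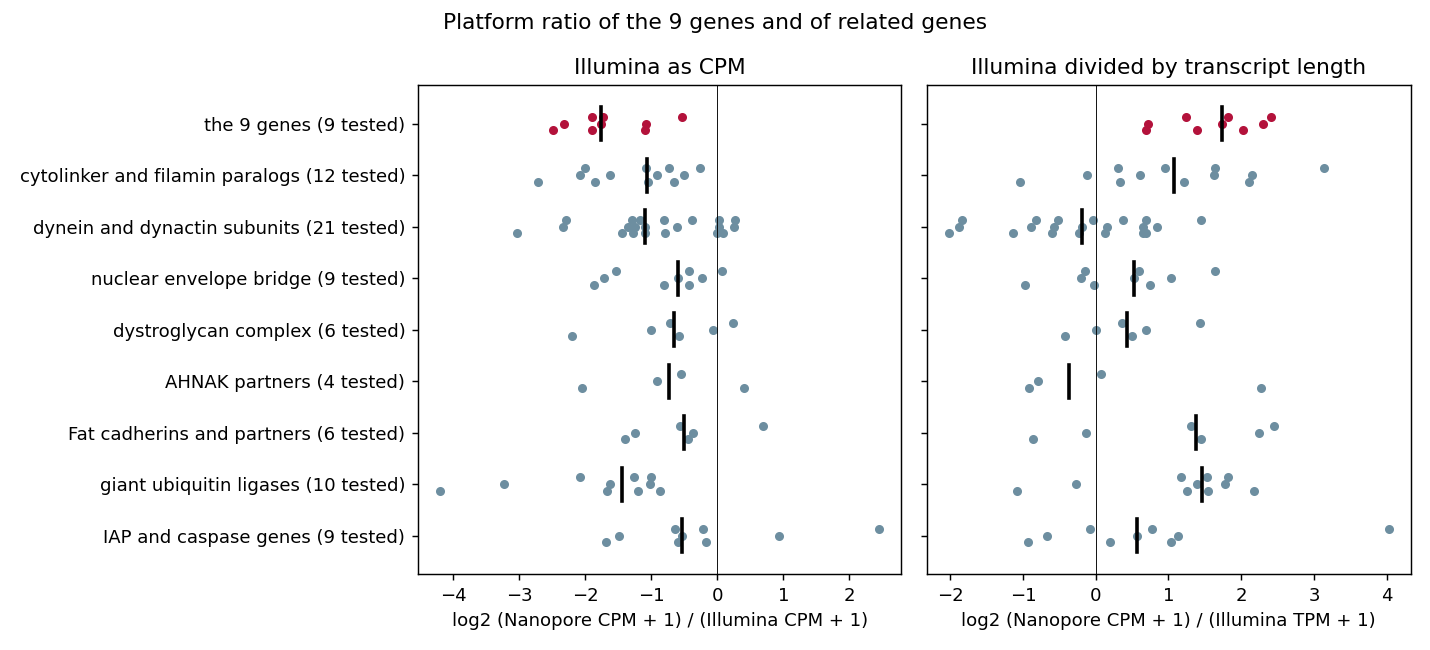
Log2 ratio of Nanopore to Illumina level for the 9 genes (red) and the tested genes of 8 lists of related genes (blue), with Illumina as CPM on the left and as TPM on the right; points are genes and black bars medians. The 9 genes have a median of −1.75 on the left and 1.73 on the right, and the dynein and dynactin subunits, from shorter mRNAs, have −1.09 and −0.19.

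Ratios of genes within a library were then compared between the platforms for 22 pairs of a member and a relative or partner, chosen by known relation after the values had been seen. With the 11 partners that themselves have transcripts of 8 kb or more, the Illumina TPM ratio lay inside the 95% exact interval of the Nanopore count ratio in 10, and the undivided Illumina count ratio in 8. UTRN stood to DMD, dystrophin, as 5.5 to 1 by Nanopore counts (1.2 to 51.1) and 5.16 to 1 by Illumina TPM, and SYNE2 to SYNE1 as 5 (1.07 to 46.9) and 4.22. FAT1 stood to FAT4 as 6.5 (1.47 to 59.3) and 9.79, and AHNAK to AHNAK2 as 11.5 (4.20 to 43.99) and 37.5. The exception was MACF1 to DST, a spectraplakin paralog, at 0.211 by Nanopore (0.0848 to 0.458) and 0.498 by TPM. Many of these intervals are wide, since the partner had as few as 2 Nanopore counts.

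With the 11 shorter partners the Illumina TPM ratio lay below the Nanopore interval in 10 and inside it in 1, BIRC6 to BIRC2. Most of these pairs have DYNC1H1 or SYNE2 as the member, so they are not independent. The Nanopore counts of both members equalled those of an overlapping gene, as described above. The undivided Illumina count ratio lay inside in 5 (BIRC2, DYNC1LI2, DCTN1, SUN1 and SUN2 as partners), above in 5 and below in 1. DYNC1H1 stood to its intermediate chain gene DYNC1I2 as 1.1 by Nanopore counts (0.650 to 1.87), 0.420 by Illumina TPM and 1.93 by undivided Illumina counts. To DYNLL1 it stood as 0.228 (0.151 to 0.334), 0.0303 and 0.910. UTRN and DAG1 had 11 Nanopore counts each, a ratio of 1 (0.393 to 2.54), against 0.129 by TPM and 0.309 by undivided counts, the single pair whose undivided ratio was below the interval. AHNAK stood to S100A10 as 0.121 by Nanopore (0.0874 to 0.165), 0.0291 by TPM and 0.812 by undivided counts.

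By distance over log2(CPM + 1) in both libraries, the long genes nearest to the members were PLEC for FLNA (distance 1.11), NFIB for AHNAK (0.58), TLN1 for DYNC1H1 (0.077), GLG1 for HUWE1 (0.12), IGF2R for FAT1 (0.091), USP8 for UTRN (0.032) and SOGA1 for MACF1 (0.063). SYNE2 and BIRC6 were each other's nearest (0.010). FLNA had no long gene near it: PLEC, its closest, had 73 Nanopore counts against 96 and 382 Illumina CPM against 789. This likeness rests on 2 libraries only.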

How the data were processed

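Polyadenylated RNA was counted per gene in 1 Nanopore and 1 Illumina library. The authors deposited whole-number counts, without normalization. Per the submitters' processing notes, minimap2 2.11-r797, HISAT2 2.1.0 and featureCounts were used with hg38, with no role stated there. The labels of the deposited counts, in shortened form, pair minimap2 with Nanopore, HISAT2 with Illumina and featureCounts with both. Annotation release, strand setting, treatment of multiply overlapping reads and any correction of Nanopore reads are not given in the sources used here.

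Names, lengths and positions came from GENCODE release 44 (hg38), which matched 58207 of 58735 identifiers. CPM used library totals, and ratios a pseudocount of 1 CPM. Genes whose mean reached 5 CPM were tested (two-sided exact conditional binomial test, Benjamini-Hochberg adjustment, scipy 1.17.1), and called under 0.05 and at 4-fold. With 1 library per platform no replicate model was fitted. On simulated data with 8-fold changes (11278 genes tested), the test called 100 of 100 raised, 81 of 100 lowered and 0 unchanged genes from 20 CPM. From 5 to 20 CPM (11279 tested) it called 99 of 100 raised and 0 of 100 lowered. The simulation drew both libraries from the Illumina proportions with Poisson counting error only. It held no length effect and no spread between libraries, so it does not show the rate of false calls between the platforms. Intervals are 95% exact and cover counting error only. Alternatives, TMM (edgeR 4.0.16) among them, are in the closing section. Named genes were the 9, each list's called genes (at most 3) and 2 highest by Illumina, genes of at least 5 CPM inside a member, nearest long genes and long genes of extreme ratio; a few of these are not reported here. Members and lists were chosen with earlier results of these data known.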

Additional observations from a re-analysis of the deposited data

How the results depend on the processing

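The unit of the Illumina values decided the direction, and the other settings kept it. For 2 calls by Illumina, division by any length gave 0, and a 2-fold threshold gave 8. Calls by Nanopore went from 0 to 3 with the representative transcript and 2 with union exonic length. The members' median log2 ratio, −1.75, became 1.73, 1.54 and 0.15 with the Illumina counts divided by representative, union and mean transcript length, and −1.55 among protein-coding genes alone. For long genes the median, −1.04, was 1.45, 1.12 and 0.38 in the same order, −0.84 among protein-coding genes alone and −0.79 without a filter. The 9 genes' Nanopore share, 0.0595%, was 0.0718% of protein-coding counts and 0.0489% without DYNC1H1 and SYNE2 (added after seeing the data). Their Illumina share, 0.219%, was 0.0265%, 0.0368% and 0.0738% by representative, union and mean length, 0.213% under TMM, 0.210% under median-ratio scaling, 0.229% of protein-coding counts, 0.233% without mitochondrial genes, 0.219% thinned and 0.183% without DYNC1H1 and SYNE2. By gene, log2 ratios with representative and union length were 1.24 and 0.50 for AHNAK, 1.82 and 2.40 for MACF1, 1.73 and 1.88 for DYNC1H1, 0.70 and 0.19 for HUWE1, 2.41 and 2.22 for SYNE2, 0.72 and 0.27 for FLNA, 1.39 and 0.76 for FAT1, 2.29 and 1.79 for UTRN, and 2.03 and 1.54 for BIRC6. With mean transcript length they turned to 0.15 for MACF1, 0.77 for DYNC1H1, 0.95 for SYNE2, 0.31 for UTRN and 0.79 for BIRC6, and stayed below 0 for AHNAK, HUWE1, FLNA and FAT1. SYNE2 and BIRC6 lost an adjusted p-value under 0.05 among protein-coding genes alone and thinned, and BIRC6 under median-ratio scaling, which left 6, 6 and 7 of 9. Thinned values in this section are over 20 draws, as medians for adjusted p-values and means for shares. TMM and median-ratio scaling raised ratios by 0.088 and 0.13. Depth limits the 6 genes with 8 to 13 Nanopore counts most. No paired analysis was possible because each platform has 1 library, and for the same reason no library could be left out.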
